A study of Mus musculus with 12 samples.

Results

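Wnt ligands and modulators are described here as 4 genes measured in mouse left ventricle (LV): the ligands Wnt1 and Wnt5a, the intracellular transducer Dvl1 and the secreted frizzled-related protein Sfrp4. They are 4 of the 863 genes to which a probe could be given a name. Among the 60819 probes analysed, 1 was named for each (ASMM10P013910 for Wnt1, ASMM10P006312 for Wnt5a, ASMM10P055619 for Dvl1 and ASMM10P007401 for Sfrp4). Further probes of these genes could be among those without a name. The files name probes by identifier alone, so a symbol was attached where its fold and p in the supplement of the study matched those computed from the deposited values for exactly 1 probe. A gene could therefore be named because it had passed the limits of the study in some comparison. All 4 genes entered through the comparison of infarcted with sham-operated control mice, with Wnt1, Wnt5a and Dvl1 on the lower side and Sfrp4 on the higher side, and Dvl1 entered also as higher in the knockout than in the control mice after infarction. The genes were thus chosen by their differences in those comparisons, which are given below as a description, with no test.

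The study asked how loss of the microRNA miR-150 from cardiomyocytes alters the ventricle after myocardial infarction (MI). LV RNA of 12 mice of strain C57BL/6J, 3 in each of 4 groups, was put on 1-colour Agilent arrays, with a separate array for every mouse. Control mice, miR-150 fl/fl (fl/fl below), carried the floxed miR-150 allele without Cre, while conditional knockout mice, miR-150 cKO (cKO below), carried the same floxed allele with alpha-MHC-Cre, a recombinase driven by a cardiomyocyte promoter, and either genotype had MI or sham surgery. Hearts were taken 4 weeks after permanent ligation of the left anterior descending artery (MI) or the sham operation, at 13 to 15 weeks of age, and each group held 1 male and 2 females. The deletion is thus directed to cardiomyocytes while the RNA came from the whole ventricle, and the fl/fl controls do not carry Cre, so an effect of Cre itself and of the deletion cannot be told apart. The deleted microRNA itself was not analysed here.

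Wnt proteins are secreted lipid-modified ligands that bind Frizzled receptors with LRP5 or LRP6 coreceptors or with ROR and RYK receptors. Dishevelled proteins, of which Dvl1 is one, carry the signal from the receptor either to beta-catenin and its TCF/LEF partners in the nucleus or into planar polarity, JNK and calcium branches. Wnt1 is the classical ligand of the beta-catenin branch and Wnt5a that of the other branches, and secreted frizzled-related proteins bind Wnts outside the cell. In the adult heart the pathway is largely quiet and is known to be engaged again after injury, in cardiomyocytes as well as in fibroblasts and endothelial cells.

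The named probes of all 4 genes gave faint signals in this tissue. Each spot's brightness was used on the log2 scale relative to the 75th percentile of its array, so 0 is a bright probe and negative values are dimmer, and the values below are on this scale unless the linear signal is named. The linear signals of the 4 probes ran from 5.4 to 59.7 units with a median of 20.75, and the errors that the scanner software gave them ran from 3.1 to 7.5 units. The negative control spots had medians of 2.80 to 5.58 units on the 12 arrays. Of the 48 values, 29 were called well above background by the scanner software, 8 of 12 for Wnt1 and 7 of 12 for each of Wnt5a, Dvl1 and Sfrp4. All 4 genes passed the filter of detection above background on 3 or more of the 12 arrays, as did 54225 of 60819 probes, and a probe that is well above background in 1 group only can pass in this way. In contrast, the named cardiomyocyte genes Myh7, Tnnt2 and Atp2a2 were well above background on all 12 arrays. In whole tissue, fewer cells that express a gene and less RNA per cell cannot be told apart.

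The arrays lay on 2 slides, as their scan batches and positions imply, since no slide is named. Slide 1 held the 3 MI cKO arrays and MI fl/fl replicate 3, all in row 1. Slide 2 held the 3 sham fl/fl arrays and sham cKO replicate 1 in row 1, and sham cKO replicates 2 and 3 with MI fl/fl replicates 1 and 2 in row 2. The arrays of row 2 had 74.0% to 82.8% of all probes well above background, against 83.7% to 90.3% for the arrays of row 1. The lowest normalized log2 signal called well above background ran from -4.95 on sham cKO replicate 1 to -3.71 on sham cKO replicate 2. On the MI cKO arrays it was -4.75, -4.77 and -4.89. The same signal can thus be called on 1 array and not on another, so counts of these calls do not measure expression alone. Correlations between arrays over all probes were 0.968 to 0.991.

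Wnt1 had lower values after MI than after sham in fl/fl hearts, while the values of the cKO groups overlapped. Its values were -3.95, -3.76 and -4.08 in sham fl/fl (replicates 1, 2 and 3) and -4.69, -4.71 and -4.18 in MI fl/fl. In cKO they were -4.07, -4.58 and -4.32 after sham and -3.82, -4.34 and -4.08 after MI. The brightest MI fl/fl array, replicate 3, lay just below the dimmest sham fl/fl array. All 3 sham fl/fl and all 3 MI cKO arrays were well above background, but only 1 of 3 arrays in each of the other 2 groups was. By group mean the order was sham fl/fl (-3.93 ± 0.16, SD, n = 3), MI cKO (-4.08 ± 0.26), sham cKO (-4.32 ± 0.25) and MI fl/fl (-4.53 ± 0.30), and each neighbouring pair in this order overlapped.

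Wnt5a was dim in all MI fl/fl hearts. It had -3.96, -3.99 and -4.39 in sham fl/fl and -4.69, -4.78 and -4.76 in MI fl/fl, where 0 of 3 arrays were well above background against 3 of 3 after sham. The cKO values were -3.98, -4.74 and -5.12 after sham and -4.46, -4.50 and -4.09 after MI. The sham cKO arrays spread most, with the lowest value of the gene on replicate 3 and 1 of 3 arrays well above background, while all 3 MI cKO arrays were well above it. The order of means was sham fl/fl (-4.11 ± 0.24, SD, n = 3), MI cKO (-4.35 ± 0.22), sham cKO (-4.62 ± 0.58) and MI fl/fl (-4.75 ± 0.05), the same order as for Wnt1, with overlap between neighbours.

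Dvl1 encodes a Dishevelled scaffold protein inside the cell, so it is a transducer of the signal and neither a ligand nor a secreted modulator. Its values were -4.55, -3.92 and -4.41 in sham fl/fl and -5.58, -5.44 and -4.96 in MI fl/fl. They were -4.40, -6.00 and -3.76 in sham cKO and -4.15, -4.44 and -4.30 in MI cKO. Every MI fl/fl array lay below every array of sham fl/fl and of MI cKO, and 0 of these 3 were well above background. Sham cKO held both the lowest and the highest value of the gene. The lowest, replicate 2, was 5.5 units of linear signal and was not significantly positive by the scanner software, on the array whose negative controls had a median of 5.58 units. The means were -4.29 ± 0.33 (SD, n = 3) in sham fl/fl, -4.30 ± 0.15 in MI cKO, -4.72 ± 1.15 in sham cKO and -5.33 ± 0.32 in MI fl/fl.

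Sfrp4, a secreted protein that binds Wnt ligands, had higher values after MI in fl/fl hearts. It had -5.05, -4.59 and -4.63 in sham fl/fl and -4.03, -2.72 and -3.88 in MI fl/fl, so that the groups did not overlap. In cKO it had -3.83, -6.01 and -3.87 after sham and -4.46, -4.37 and -4.80 after MI. All 3 arrays were well above background in each MI group, against 0 of 3 in sham fl/fl and 1 of 3 in sham cKO. These calls did not follow the values, since -3.87 on sham cKO replicate 3 was not called and -4.80 on MI cKO replicate 3 was. The brightest array, MI fl/fl replicate 2, reached 59.7 units of linear signal, and the other 2 arrays of that group had 22.4 and 25.1. As for Dvl1, sham cKO replicate 2 was not significantly positive, at 5.4 units. The means were -3.55 ± 0.72 (SD, n = 3) in MI fl/fl, -4.54 ± 0.23 in MI cKO, -4.57 ± 1.25 in sham cKO and -4.76 ± 0.25 in sham fl/fl. MI fl/fl lay above MI cKO without overlap, and the last 3 groups in this order overlapped.

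**Figure D1:**
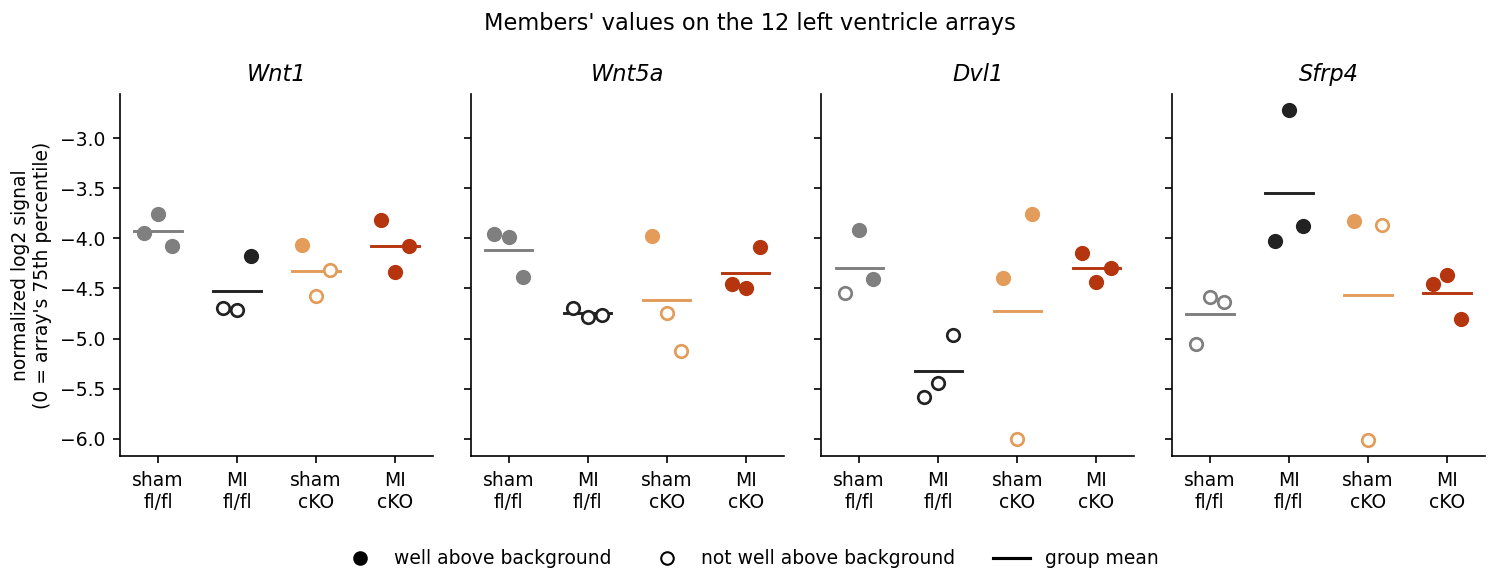
Normalized log2 signal (y axis, 0 is the 75th percentile of the array) of Wnt1, Wnt5a, Dvl1 and Sfrp4 on the 3 arrays of each group, with replicates 1 to 3 from left to right, filled where the spot was well above background, and with the group mean as a line. Wnt1, Wnt5a and Dvl1 were lowest on average in MI fl/fl, Sfrp4 was highest there, and sham cKO held the widest spread for Wnt5a, Dvl1 and Sfrp4.

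In fl/fl hearts the log2 difference of MI from sham, from a limma fit of the 4 group means over all probes tested, was -0.60 (SE 0.19) for Wnt1, -0.63 (SE 0.25) for Wnt5a, -1.03 (SE 0.45) for Dvl1 and 1.21 (SE 0.53) for Sfrp4. All 4 were past a fold of 1.5 with an unadjusted p under 0.05, which over all 54225 probes tested held for 0.365% on the lower side and 0.882% on the higher side. The groups did not overlap for any of the 4, as for 8.58% of all probes tested. This comparison chose the genes, so nothing is read from these counts. For Wnt5a, Dvl1 and Sfrp4 0 of 3 arrays of the dimmer group were well above background, so the fold is given as a bound on the measured means. It sets the mean of the brighter group against, on each dimmer array, the lowest signal called well above background or the probe's own signal where that was higher. Wnt5a was at least 1.19-fold lower after MI, Dvl1 (2 of 3 sham arrays well above background) at least 1.05-fold lower and Sfrp4 at least 1.83-fold higher. Sfrp4 differed by 0.80 without MI fl/fl replicate 2.

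The separation of the fl/fl groups ran partly along the position of the arrays. On slide 2 all sham fl/fl arrays were in row 1 and both MI fl/fl arrays were in row 2, so surgery and row cannot be told apart there. Wnt1 was well above background on 8 of 8 arrays of row 1 and on 0 of 4 arrays of row 2, whichever group they belonged to, with values of -4.34 to -3.76 and of -4.71 to -4.32. Wnt5a was well above background on 7 of 8 arrays of row 1, the exception being MI fl/fl replicate 3, and on 0 of 4 of row 2. Dvl1 and Sfrp4 had 1 of 4 and 2 of 4 arrays of row 2 well above background. With the arrays of row 1 only, which leaves MI fl/fl with replicate 3 alone, the differences were -0.25 (SE 0.23) for Wnt1, -0.65 (SE 0.24) for Wnt5a, -0.67 (SE 0.26) for Dvl1 and 0.87 (SE 0.25) for Sfrp4. That array lies on slide 1 and the sham fl/fl arrays on slide 2, so surgery and slide cannot be told apart there. These SEs assume that MI fl/fl varies like the other groups. With slide as a block, which takes this difference from slide 2 alone, they were -0.77, -0.62, -1.22 and 1.38. With slide and row together as a block, Wnt1 had -0.40 (SE 0.28), Dvl1 -0.74 (SE 0.89) and Sfrp4 2.49 (SE 0.98), and Wnt5a turned to 0.33 (SE 0.32). In that fit the row part comes from sham cKO alone, replicate 1 in row 1 against replicates 2 and 3 in row 2. For Dvl1 and Sfrp4, replicate 2 of that group was not significantly positive. The part of row in these differences was not tested further.

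**Figure D2:**
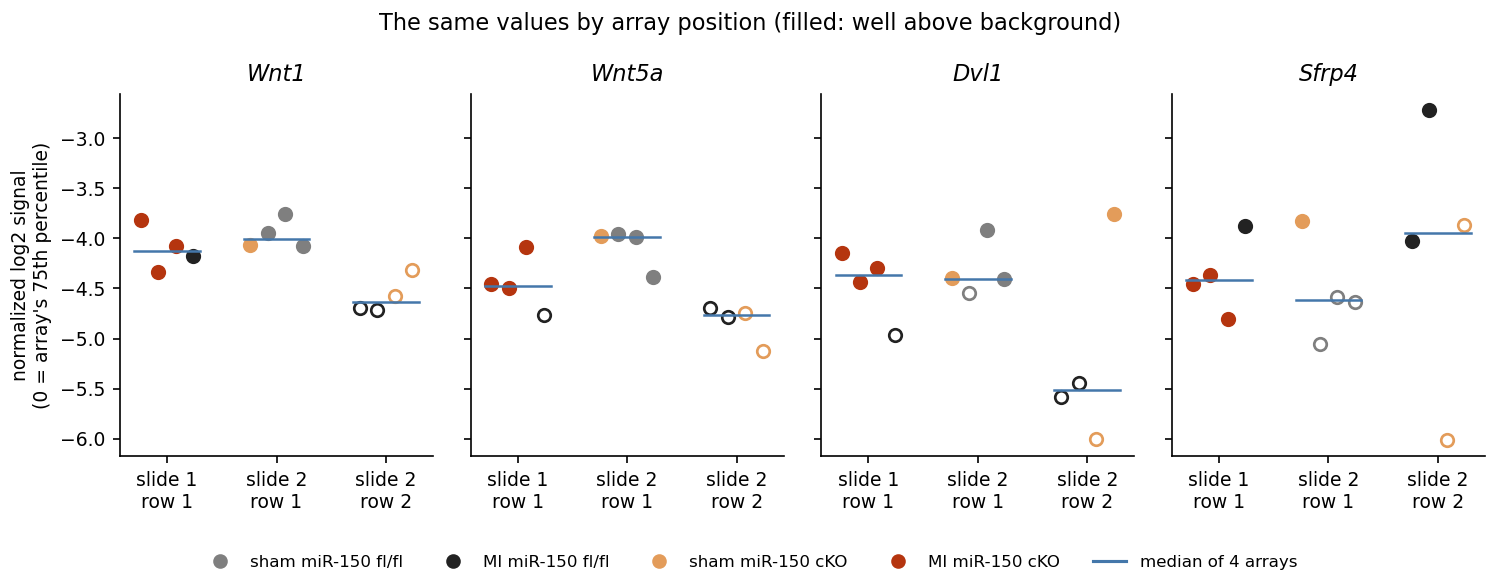
The same normalized log2 signals by slide and row of the array, 4 arrays to a position, coloured by group, filled where well above background, with the median of each position as a line. The 4 arrays of slide 2, row 2 were the lowest position for Wnt1, Wnt5a and Dvl1 by median and held no filled point for Wnt1 and Wnt5a.

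MI and sham were then compared in cKO hearts. This comparison did not choose any of the genes, and for Wnt1, Wnt5a and Sfrp4 its means come from other arrays than those that named the probe. The SE, interval and limma p draw on the spread within all 4 groups, so the fl/fl arrays that chose the genes enter them. For Dvl1 the MI cKO arrays also took part in naming it. The log2 difference of MI from sham was 0.24 for Wnt1 (SE 0.19, 95% interval -0.18 to 0.67), 0.26 for Wnt5a (SE 0.25, -0.29 to 0.82), 0.42 for Dvl1 (SE 0.45, -0.58 to 1.42) and 0.02 for Sfrp4 (SE 0.53, -1.16 to 1.21). The adjusted p values from limma, by the Benjamini-Hochberg method over all probes tested, were 0.485, 0.567, 0.622 and 0.984, so 0 of the 4 genes passed, in a comparison in which 2.1% of probes did and 20.9% had an unadjusted p under 0.05. None of the 4 had an unadjusted p under 0.05 (0 genes). Exact two-sided permutation tests gave p = 0.5, 0.5, 0.8 and 1.0, where 0.1 is the smallest that 3 arrays against 3 allow. The groups overlapped for each gene. From the cKO arrays alone, by the unpaired 2-tailed test, the SE was 0.21 for Wnt1, 0.36 for Wnt5a, 0.67 for Dvl1 and 0.73 for Sfrp4. Each 95% interval above held 0. That of Dvl1 was wide enough to hold a change of 1 on the log2 scale in the higher direction, and that of Sfrp4 in either direction. With the larger SEs from the cKO arrays alone all of these intervals would be wider, so changes outside them are not excluded.

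**Figure D3:**
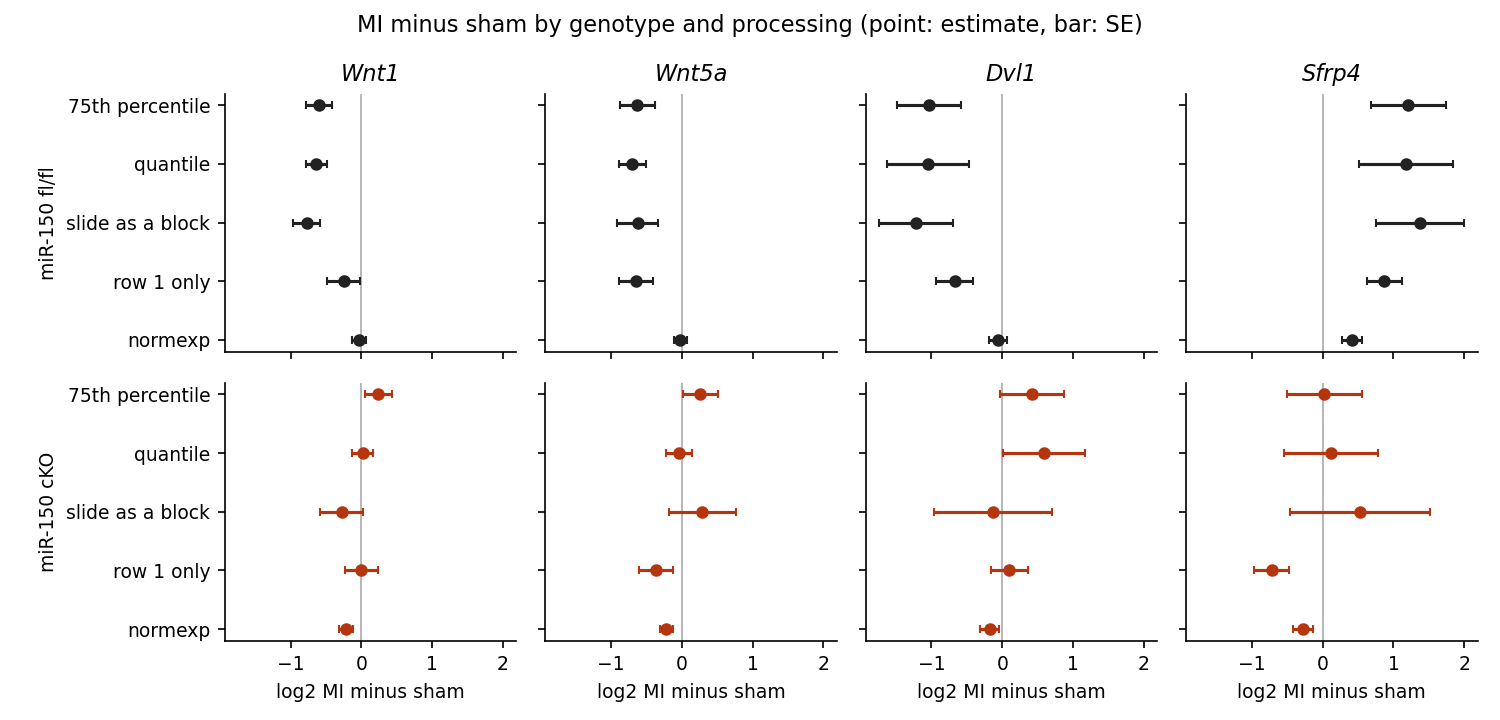
Log2 difference of MI from sham (x axis) for each gene in fl/fl (upper row) and cKO (lower row) under 5 ways of processing (y axis), with points for estimates and bars for their SE. In fl/fl the sign was the same under these 5, with values near 0 for Wnt1, Wnt5a and Dvl1 under normexp, and in cKO the estimates fell on both sides of 0 for every gene.

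The cKO arrays were split by surgery between the slides, MI on slide 1 and sham on slide 2, and only MI fl/fl spans both. A slide block thus rests on MI fl/fl replicate 3 (slide 1, row 1) against replicates 1 and 2 (slide 2, row 2). Slide and row cannot be told apart there, and these arrays also chose the genes. With slide as a block the differences were -0.28, 0.29, -0.13 and 0.53 for Wnt1, Wnt5a, Dvl1 and Sfrp4, with adjusted p of 0.919 or higher. For Dvl1 and Sfrp4 the sign also turned when 1 array was left out. Without sham cKO replicate 2, Dvl1 differed by -0.22 and Sfrp4 by -0.70, with adjusted p of 0.711 and 0.348 from limma.

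Genotype was compared within each surgery as a description, since these comparisons share arrays with the one that chose the genes. After sham, cKO differed from fl/fl by -0.39 (SE 0.19) for Wnt1, -0.50 (SE 0.25) for Wnt5a, -0.43 (SE 0.45) for Dvl1 and 0.19 (SE 0.53) for Sfrp4, and the groups overlapped for every gene. With slide and row as a block, which rests on sham cKO replicate 1, these were -0.14, 0.13, -0.11 and 0.93. Without sham cKO replicates 1, 2 or 3 in turn, Dvl1 reached 0.21 (without replicate 2) and -0.91 (without replicate 3), Wnt5a -0.82 (without replicate 1) and -0.25 (without replicate 3), and Sfrp4 -0.18, 0.91 and -0.16. Dvl1 was -0.24 without sham fl/fl replicate 2, and Sfrp4 was 0.04 without sham fl/fl replicate 1. After MI the differences were 0.45 (SE 0.19), 0.39 (SE 0.25), 1.03 (SE 0.45) and -1.0 (SE 0.53). Here the groups did not overlap for Wnt5a, Dvl1 and Sfrp4, as for 28.4% of all probes tested. Of the 4 genes only Dvl1 was past the fold and unadjusted limits, on the higher side, as were 3.45% of all probes, with 1.31% on the lower side. The bound on the measured means, which leaves out their spread, was at least 1.01-fold higher in MI cKO for Wnt5a and at least 1.05-fold for Dvl1. For Sfrp4, both MI groups were well above background, and its difference was -0.58 without MI fl/fl replicate 2. Within slide 1, where the MI fl/fl group is replicate 3 alone, the difference between genotypes after MI was 0.10 for Wnt1, 0.41 for Wnt5a, 0.66 for Dvl1 and -0.66 for Sfrp4. The MI difference in cKO less that in fl/fl was 0.84 (SE 0.27) for Wnt1, 0.90 (SE 0.35) for Wnt5a, 1.45 (SE 0.64) for Dvl1 and -1.19 (SE 0.76) for Sfrp4. With slide and row as a block these were 0.24, 0.28, 0.77 and -1.59, and with slide alone 0.49, 0.92, 1.09 and -0.85. Without sham cKO replicate 2, Dvl1 had 0.81 and Sfrp4 -1.91, and without MI fl/fl replicate 2, Sfrp4 had -0.77.

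Among the 3 genes that were low in MI fl/fl, Wnt1 varied with both others over the 12 arrays, and Wnt5a and Dvl1 varied together less closely. Pearson's r of the normalized log2 values was 0.77 between Wnt1 and Dvl1, 0.68 between Wnt1 and Wnt5a and 0.34 between Wnt5a and Dvl1. Sfrp4 had r of -0.27 with Wnt1, -0.29 with Wnt5a and 0.09 with Dvl1. These values include the group differences by which the genes were chosen, and the arrays share slides and rows. Among the 862 other named genes, those most like Wnt1 by r over the 12 arrays were Tmem245 (0.88), Cyb5d2 (0.87) and Epb4.1l1 (0.82). Tmem245 (0.82) and Cyb5d2 (0.79) were also among the 3 most like Wnt5a, with Agpat9 (0.79). Dvl1 was most like Msantd3 (0.96), Gjd3 (0.91) and Reep3 (0.87), and Sfrp4 was most like Tmem45b (0.91), Mup16 (0.88) and 1700001C02Rik (0.86). Apart from Tmem245, none of these was well above background on all 12 arrays.

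Promoter sequence was at hand for Wnt1 and Dvl1, the pair with the highest r. It is shown from 250 bases before to 50 bases after the transcription start, from RefSeq on build GRCm38.p6, on the strand of the gene, with capitals for every CG pair. Wnt1 lies at chr15:98789607-98789906 (+ strand) and Dvl1 at chr4:155847152-155847451 (+ strand).
Wnt1: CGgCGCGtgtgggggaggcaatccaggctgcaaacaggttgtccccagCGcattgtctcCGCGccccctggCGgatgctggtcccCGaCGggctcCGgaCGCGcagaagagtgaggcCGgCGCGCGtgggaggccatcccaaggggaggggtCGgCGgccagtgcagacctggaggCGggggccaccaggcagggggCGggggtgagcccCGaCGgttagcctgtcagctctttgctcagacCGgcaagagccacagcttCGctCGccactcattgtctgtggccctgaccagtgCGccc
Dvl1: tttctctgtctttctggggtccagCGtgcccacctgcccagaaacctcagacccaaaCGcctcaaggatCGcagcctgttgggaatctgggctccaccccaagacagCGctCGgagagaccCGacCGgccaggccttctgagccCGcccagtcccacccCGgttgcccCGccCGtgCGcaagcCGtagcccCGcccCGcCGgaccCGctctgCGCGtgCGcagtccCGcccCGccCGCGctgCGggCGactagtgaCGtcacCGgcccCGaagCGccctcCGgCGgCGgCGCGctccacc
The Wnt1 window holds 26 CG pairs and the Dvl1 window 35, against a median of 7 over 32851 promoters of the same length, of which 16.9% hold at least 26 and 7.0% at least 35. The letters CTTTGA, the core of the TCF/LEF motif of the beta-catenin branch, were searched on both strands. They occur 0 times in either window and at least once in 16.0% of all promoters.

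The rest of the pathway was followed through 9 lists of 191 Wnt genes in all, of which 20 could be named and were tested, the 4 genes above and 16 others. As those 16 have a name because they passed the limits of the study in comparisons that share arrays with the ones below, their counts are a description. In cKO hearts, 2 of the 20 had an adjusted p under 0.05 for MI against sham (limma, Benjamini-Hochberg), both higher, against 0.791% of all probes on the higher side. A further 3 were past the fold and unadjusted limits, which makes 5 of 20 higher against 4.6% of all probes, and 0 of 20 were lower against 1.75%. The median difference of the 20 was 0.42, beside 0.06 over all probes tested. Bcl9, Gpc1, Gpc4, Fzd2, Sost, Igfbp4, Dvl1, Invs, Mapk10 and Nfatc4 were named as higher in MI cKO than in MI fl/fl. Nfatc1 and Wnt9a were named as lower in sham cKO than in sham fl/fl. Either naming favours a higher difference here. Serpinf1, Cthrc1 and Wisp2 (higher in sham cKO) and Ppp3ca and Cd44 (lower in MI cKO) were favoured the other way. The values over all probes are not selected in this way. Both adjusted calls were lost with slide as a block (0 of 20, with 1 past the fold and unadjusted limits). With 1 array left out, 2 were called without sham fl/fl replicate 1 and 0 or 1 without any other array.

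The 2 genes that passed were Bcl9, a nuclear coactivator that links beta-catenin to Pygopus, and Gpc4, a cell-surface glypican that can bind Wnts. Bcl9 was 1.03 higher in MI than in sham cKO (SE 0.23, adjusted p = 0.0481 from limma) and -0.27 (SE 0.23) from sham in fl/fl. Gpc4 was 0.87 higher (SE 0.19, adjusted p = 0.046 from limma), with -0.05 (SE 0.19) in fl/fl. Both genes were named only as higher in MI cKO than in MI fl/fl, so the MI cKO arrays tested here also chose them. Their adjusted p values do not allow for that choice. With slide as a block the cKO differences were 1.12 for Bcl9 and 0.33 for Gpc4, with adjusted p of 0.670 and 0.902.

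Among the other ligands, Wnt9a was named, and its difference of MI from sham was -0.53 (SE 0.36) in fl/fl and 0.09 (SE 0.36) in cKO. The receptor Fzd2 had -0.07 (SE 0.21) in fl/fl and 0.41 (SE 0.21) in cKO, and the glypican Gpc1 had -0.18 and 0.76 (SE 0.28 for both). Of the secreted modulators besides Sfrp4, Serpinf1, which encodes pigment epithelium-derived factor, had 1.07 (SE 0.24) in fl/fl and 0.54 in cKO, and Cthrc1, a collagen triple helix repeat protein made by activated fibroblasts, had 3.48 (SE 0.66) and 0.65. Both were named as higher after MI in fl/fl and as higher in sham cKO than in sham fl/fl (by 0.74 and 2.48), so the order of these values is favoured by how they were named. Sost, which encodes the LRP5 and LRP6 antagonist sclerostin, had -0.15 in fl/fl and 1.35 in cKO (SE 0.44), with an adjusted p of 0.123 from limma. Fzd2, Gpc1 and Sost were named as higher in MI cKO than in MI fl/fl, which favours their cKO differences. With slide as a block the cKO differences of Sost, Gpc1 and Fzd2 were 0.20, 0.42 and -0.01, and those of Wnt9a and Cthrc1 were -1.11 and -0.17. Igfbp4, an insulin-like growth factor binding protein that also inhibits Wnt signaling, had -0.38 and 0.22 (SE 0.13).

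Inside the cell, Invs (inversin), which binds Dishevelled, had -0.15 and 0.34 (SE 0.52) and was well above background on 7 of 12 arrays. The kinase gene Mapk10 (JNK3) had -0.00 and 0.67 (SE 0.38). With slide as a block the cKO differences of Invs and Mapk10 were -0.04 and -0.23. In the calcium branch, the calcineurin subunit Ppp3ca had 0.23 and -0.11 (SE 0.14), Nfatc1 had -0.02 and 0.81 (SE 0.18, adjusted p = 0.0523 in cKO from limma) and Nfatc4 had 0.06 and 0.37 (SE 0.14), the first value of each pair for fl/fl. With slide as a block the cKO difference of Nfatc1 was 0.51, with an adjusted p of 0.852 from limma. Of the 15 listed target genes 2 were named. Wisp2 (Ccn5) had 0.77 and 0.52 (SE 0.16), and Cd44 had 0.43 and 0.09 (SE 0.14). Wisp2 was named as higher after MI in fl/fl, and Cd44 as lower in MI cKO than in MI fl/fl. Either naming favours a higher value in fl/fl.

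**Figure D4:**
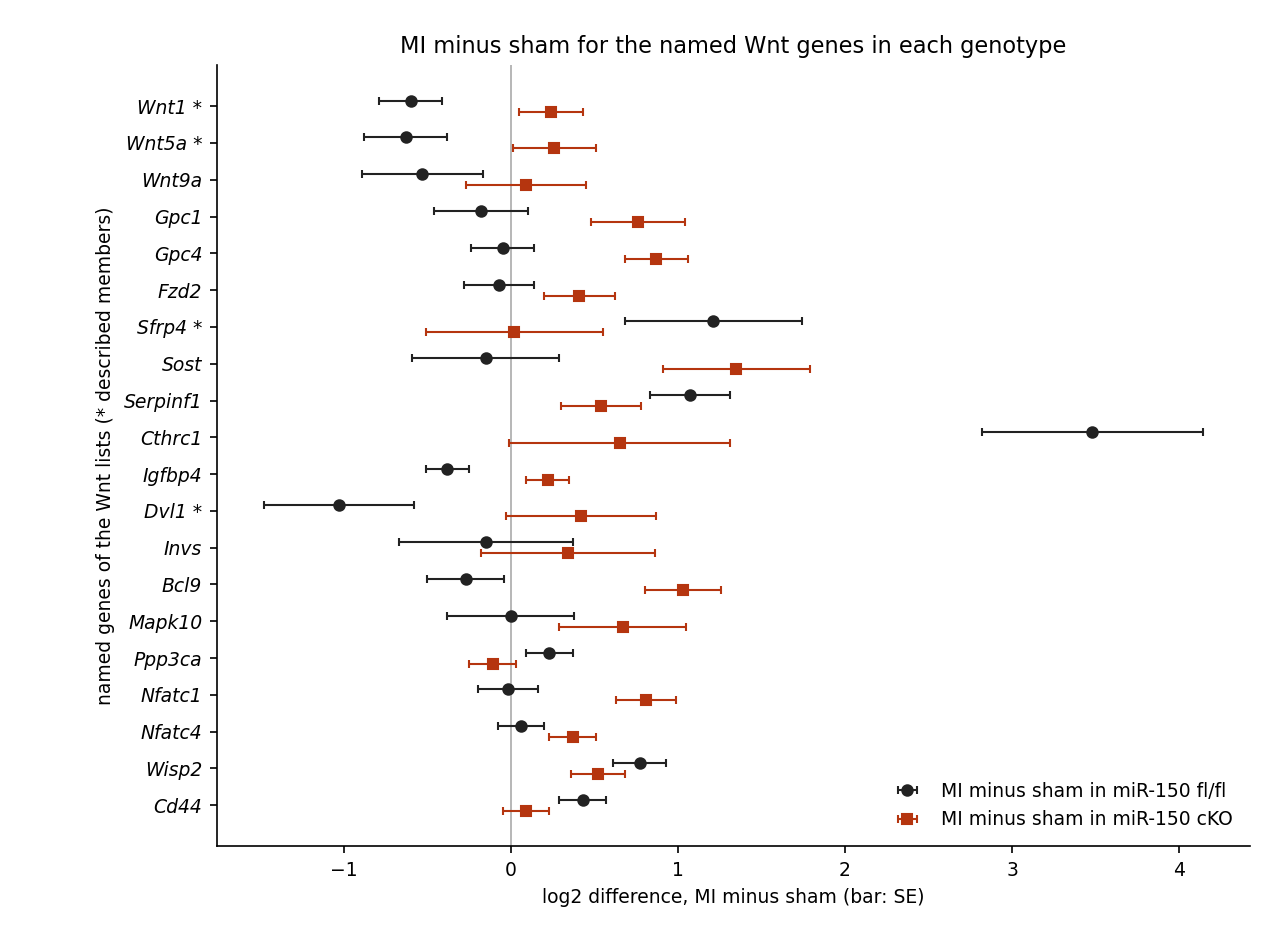
Log2 difference of MI from sham (x axis, bars are SE) for the 20 named genes of the Wnt lists (y axis, ordered by role, with stars on the 4 genes described above), in fl/fl (circles) and cKO (squares). The values ran from -0.11 for Ppp3ca to 1.35 for Sost in cKO, where MI and sham lie on different slides, and from -1.03 for Dvl1 to 3.48 for Cthrc1 in fl/fl.

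Markers of other cell types had a name only where they passed the limits of the study in these comparisons, so that they differ is fixed by the naming. Names were found for 4 of 10 genes for fibroblasts, 3 of 10 for leukocytes, 2 of 10 for adipocytes, 3 of 10 for cardiomyocytes and 0 of 10 for endothelial cells. The mean of the 4 fibroblast probes (Col1a1, Col1a2, Col3a1 and Postn) was -0.33 to 0.78 in sham fl/fl and 2.02 to 2.10 in MI fl/fl, with 1.38 to 2.0 in sham cKO and 2.06 to 3.09 in MI cKO. The 2 adipocyte probes, Adipoq and Cfd, had means of -3.08 to -1.88, -1.48 to -0.03, -2.50 to -1.13 and -3.18 to -2.64 in the same order. The 3 leukocyte probes (Emr1, Lyz2 and Cd14) ranged from 1.95 to 2.75, 2.72 to 3.04, 2.93 to 3.32 and 2.47 to 3.19, and the 4 cardiomyocyte probes (Myh7, Atp2a2 and 2 of Tnnt2) from 4.10 to 4.45, 4.04 to 4.08, 4.18 to 4.95 and 4.73 to 4.91. The cardiomyocyte probes did not go one way, since after MI Myh7 and Atp2a2 were 3.27 and 0.87 higher in cKO than in fl/fl and both Tnnt2 probes had -0.55. All of these probes were well above background on all 12 arrays. The part of these cell types in the values of the 4 genes was not tested.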

How the data were processed

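RNA of 12 mouse left ventricles was measured on 12 arrays. The authors deposited each array's spot intensity, linear and background-subtracted by Agilent Feature Extraction 11.0.1.1 (named in the submitters' processing notes), without scaling between arrays, and a table of log2 values whose quartiles are the same for every array. How that table was normalized is not given in the sources used here, and the headers give build mm9.

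Processed signals were taken to log2, and every array's own 75th percentile was subtracted. Control spots and 435 flagged spots were left out, and 0 spots were saturated. The filter kept 54225 probes, those called well above background 3 or more times in 12. limma 3.58.1 in R 4.3.3 fitted 4 group means with 8 residual degrees of freedom, and p values were adjusted by the Benjamini-Hochberg method over all probes tested. The limits were a fold of 1.5 with an unadjusted p under 0.05, and an adjusted p under 0.05. The number of arrays limits the precision. The fit was tested on simulated data made from these arrays. Figures were drawn with matplotlib 3.10.9 in Python 3.11.15.

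The files name no genes. All 963 entries of the supplement's gene sheets that could be read matched exactly 1 probe within a relative tolerance of 2e-05 on fold and p, used as a name key only, which named 892 probes with 863 symbols. Of the transcripts these stand for, 879 were found in RefSeq.

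The 4 genes, the Wnt and marker lists and the tests were chosen with earlier results of these data known. Genes named in the text are the 4 genes, the named genes of the Wnt and marker lists, and the 3 named genes most like each of the 4 by Pearson's r. Alternatives were quantile normalization, normexp with an offset of 50 on the median spot signal, the authors' values, 2 other filters, a fit of only the 2 groups compared, a covariate for sex, blocks for replicate number, slide, and slide with row, the study's unpaired 2-tailed test, and leaving out each array. The use of the arrays of row 1 only was added after seeing the data. Same-numbered arrays did not deviate together (median r of 0.04 over 18 pairs, from -0.27 to 0.27), so no pairing was used.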

Additional observations from a re-analysis of the deposited data

How the results depend on the processing

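The named probes of all 4 genes lay near the limit of detection, so the treatment of background sets the size of their differences. With normexp, whose offset of 50 exceeds nearly all of their signals, the MI difference in fl/fl was -0.04 for Wnt1, -0.02 for Wnt5a, -0.06 for Dvl1 and 0.41 for Sfrp4. In cKO it turned to -0.22, -0.22, -0.18 and -0.28, and the difference between the 2 genotypes turned to -0.18 for Wnt1, -0.20 for Wnt5a and -0.12 for Dvl1. The genotype difference after MI turned to -0.15 for Wnt1, -0.19 for Wnt5a and -0.02 for Dvl1, and that after sham to 0.03, 0.00 and 0.10. Such an offset pulls dim signals together, so the 75th percentile subtracted from each array weighs more in their differences. On the processed log2 signal that percentile was 8.703 to 8.874 in MI cKO and 8.405 to 8.773 in sham cKO. Over all probes tested the median MI difference in cKO was -0.06 with normexp, beside 0.06 in the main fit. The signs under normexp are therefore not read as changes of these genes. A filter on all 12 arrays gave no value for the 4 genes, since none of them passes it.

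In cKO the sign of the MI difference also turned with slide as a block for Wnt1 (-0.28) and Dvl1 (-0.13), with slide and row as a block for Wnt1 (-0.15), with quantile normalization for Wnt5a (-0.04), with the authors' values for Wnt5a (-0.04) and Sfrp4 (-0.02), and with the arrays of row 1 only, where sham cKO is replicate 1 alone and is assumed to vary like the other groups, for Wnt1 (-0.00), Wnt5a (-0.37) and Sfrp4 (-0.72). Leaving out 1 array gave 0.11 to 0.38 for Wnt1, 0.01 to 0.58 for Wnt5a, -0.22 to 0.90 for Dvl1 and -0.70 to 0.40 for Sfrp4. The adjusted p over these alternatives was 0.177 to 0.996 for Wnt1, 0.077 to 0.987 for Wnt5a, 0.337 to 0.992 for Dvl1 and 0.229 to 0.991 for Sfrp4 (limma, or the unpaired 2-tailed test of the methods, Benjamini-Hochberg), so 0 passed. In fl/fl, slide and row as a block, with the row part taken from sham cKO alone, turned Wnt5a to 0.33. Causes beyond the construction of each alternative were not tested.

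Of the Wnt lists, 2 genes were called in cKO for MI against sham. The count was 1 with no filter and with sex as a covariate, and 0 to 2 when 1 array was left out. It was 0 in a fit of the compared groups alone, by the methods' test, with slide as a block, with slide and row as a block and with the arrays of row 1 only, where 5, 3, 1, 1 and 6 genes were higher past the fold and unadjusted limits. It was 3 with quantile normalization, normexp, the authors' values and the filter on all 12 arrays.

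With the replicate number as a block, the number called in the lists was 0, and the MI difference in cKO was 0.24 for Wnt1, 0.26 for Wnt5a, 0.42 for Dvl1 and 0.02 for Sfrp4, as without the block. The numbers are shared labels only. Over all probes, limma called 0 with the block against 1139 without it, while 2452 higher and 996 lower were past the fold and unadjusted limits with it, against 2495 and 951.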
